A study of Mus musculus with 6 samples.

Results

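The CA1 pyramidal cell markers Wfs1, Fibcd1, Mpped1, Pou3f1 and Man1a1 were examined in bulk RNA sequencing of the hippocampus of young mice given repeated lidocaine injections and of young control mice. The 5 members were found by symbol in a table of 22050 genes, where 4 of them matched 1 row each. Pou3f1 matched 0 rows and was not analysed here. The lidocaine group and the control group had 3 libraries each, and the series' design also names old mice, which were not analysed here. The titles and descriptions give the age as young and the treatment as lidocaine injections or control. They give no strain, sex, dose, route or number of injections. Nor do they say that the 3 libraries of a group are 3 animals, so every p-value below refers to variation among libraries, which may be technical. Lidocaine, a local anaesthetic, acts by blocking sodium channels of nerve cells. Estimated counts summed to 16013017 to 16984995 in the lidocaine libraries and to 13887604 to 15990264 in the control libraries. The samples are labelled as mouse, but the rows of the table all carry rat Ensembl identifiers, so levels depend on a gene model whose species could not be settled, and genes are named as the table names them.

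CA1 is the field of the hippocampus whose pyramidal cells carry its main output to the subiculum and cortex, after input from CA3 and the entorhinal cortex. Its pyramidal cells are told apart from those of CA2 and CA3, and from dentate granule cells, by genes with steep borders of expression. Wfs1 encodes wolframin, a glycoprotein of the endoplasmic reticulum membrane that bears on calcium stores and the response to misfolded proteins, and it marks the dorsal part of CA1 most strongly. Fibcd1 encodes a membrane protein with a fibrinogen-like domain that binds acetylated sugars and chitin. Mpped1 encodes a protein with a metallophosphoesterase domain, Man1a1 a Golgi mannosidase that trims N-linked sugar chains, and Pou3f1 a POU-domain transcription factor. In a whole hippocampus, fewer CA1 cells and less RNA per cell cannot be told apart.

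None of the 4 measured markers was called different with lidocaine. In the lidocaine libraries, Fibcd1, Mpped1 and Man1a1 lay between -0.21 and 0.12 log2 units from their control means, after scaling to library size. Man1a1 was below every control in lidocaine libraries 1 and 2. Wfs1 ranged more widely, from -0.98 to 0.31 on the same scale. It was above every control in lidocaine libraries 1 and 3 and well below every control in lidocaine library 2. The test behind the calls was edgeR's quasi-likelihood test on rounded counts over 13408 genes. A gene was called at a Benjamini-Hochberg-adjusted p under 0.05, which 0.0149% of all tested genes passed. The 4 measured markers gave 0 calls, and DESeq2, an alternative, likewise called 0 of the 4, against 0.172% of all genes it tested. An unadjusted p under 0.05 in edgeR was found for 0 of the 4 markers and for 4.36% of all tested genes. Of the 4 markers, 0 had lidocaine and control ranges that did not overlap, against 9.9% of all tested genes.

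Wfs1, the wolframin gene, was the most abundant of the markers per length. Its level in FPKM, a count of fragments scaled for transcript length and library depth, was 121.52, 57.73 and 138.44 in lidocaine libraries 1, 2 and 3, against 111.64, 111.4 and 113.84 in control libraries 1, 2 and 3. Lidocaine library 2 was the lowest of the 6 and lidocaine library 3 the highest, so that the controls lay inside the range of the lidocaine group. The underlying counts were all whole, at 12306, 5555 and 13397 with lidocaine and 9792, 10725 and 9646 in the controls, so the low value of lidocaine library 2 does not rest on few reads. Wfs1 averaged 105.9 ± 42.6 FPKM with lidocaine and 112.3 ± 1.34 FPKM in controls (SD, n = 3 each). The coefficient of variation of Wfs1 in CPM, counts scaled to library size with TMM factors, was 40.7% with lidocaine and 0.989% in controls.

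The log2 fold change of Wfs1, lidocaine over control, was -0.10 ± 0.33 (SE; edgeR, Benjamini-Hochberg-adjusted p = 0.997). Its 95% interval ran from -0.94 to 0.74, which spans 0.522-fold to 1.68-fold, so neither a sizeable fall nor a sizeable rise could be told from no change. Without lidocaine library 2 the sign turned and the log2 fold change was 0.20, with an unadjusted p of 0.0345 in edgeR (Benjamini-Hochberg-adjusted p = 0.999). In that comparison 3.84% of 13600 genes had an unadjusted p under 0.05.

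**Figure D1:**
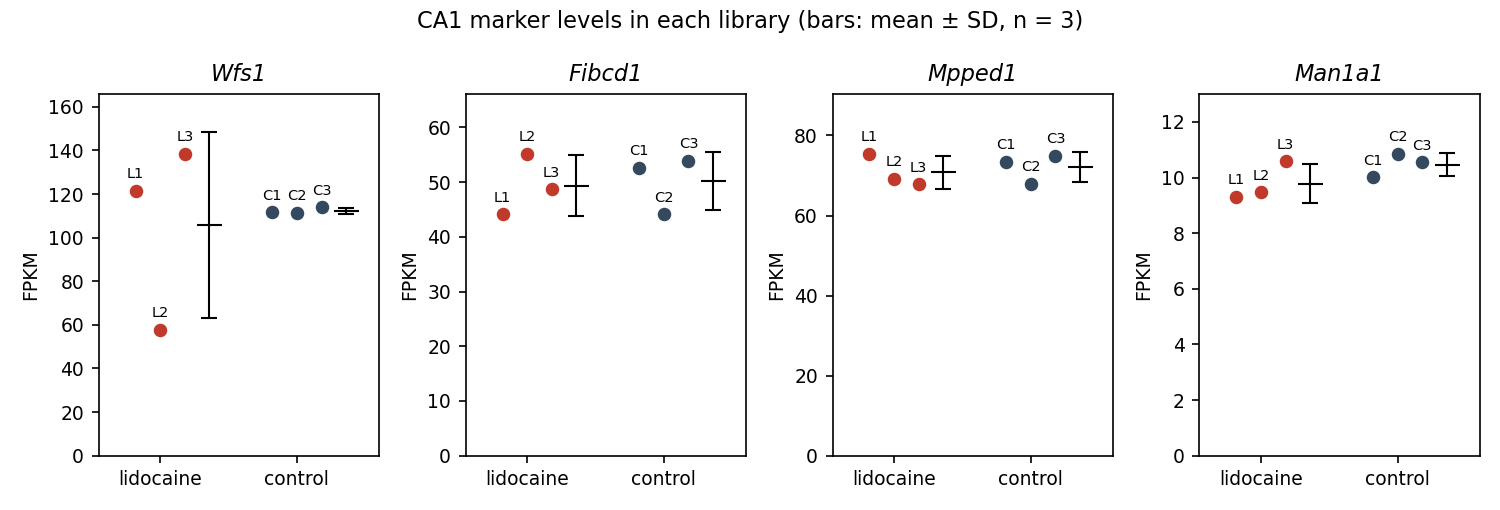
FPKM of the 4 measured CA1 markers in lidocaine libraries 1 to 3 (red, L1 to L3) and control libraries 1 to 3 (dark, C1 to C3), on axes that start at 0, with the mean and SD of each group beside its points. Wfs1 is at 57.73 in lidocaine library 2 and between 111.4 and 138.44 in the other libraries, while the points of both groups overlap for Fibcd1, Mpped1 and Man1a1.

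Fibcd1, the fibrinogen-domain membrane protein, was at 44.15, 55.18 and 48.73 FPKM in lidocaine libraries 1, 2 and 3, against 52.63, 44.1 and 53.93 FPKM in control libraries 1, 2 and 3. Lidocaine library 2, where Wfs1 was lowest, had the highest Fibcd1 level of the 6, and the low libraries were lidocaine 1 and control 2. Fibcd1 averaged 49.4 ± 5.54 FPKM with lidocaine and 50.2 ± 5.34 FPKM in controls (SD, n = 3 each). Lidocaine over control gave a log2 fold change of -0.04 ± 0.10 (SE; edgeR, Benjamini-Hochberg-adjusted p = 0.997), with a 95% interval from -0.28 to 0.21, or 0.822-fold to 1.15-fold. Its sign turned without lidocaine library 1 (0.04) and without control library 3 (0.01).

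Mpped1, the metallophosphoesterase-domain gene, was at 75.4, 69.15 and 67.8 FPKM in lidocaine libraries 1, 2 and 3, against 73.49, 67.94 and 74.89 FPKM in control libraries 1, 2 and 3. The groups covered nearly the same range. Mpped1 averaged 70.8 ± 4.05 FPKM with lidocaine and 72.1 ± 3.68 FPKM in controls (SD, n = 3 each). It had the narrowest interval of the 4, with a log2 fold change of -0.04 ± 0.06 (SE; edgeR, Benjamini-Hochberg-adjusted p = 0.995) and 95% bounds of -0.18 and 0.10, or 0.88-fold and 1.07-fold. Mpped1 is the only one of the 4 with fractional counts, so its values depend on how reads were divided by the authors' counting.

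Man1a1, the Golgi mannosidase, was the least abundant of the measured markers. It was at 9.3, 9.47 and 10.58 FPKM in lidocaine libraries 1, 2 and 3, against 10.01, 10.85 and 10.54 FPKM in control libraries 1, 2 and 3. Lidocaine libraries 1 and 2 lay below all controls and lidocaine library 3 lay among them. Man1a1 averaged 9.78 ± 0.695 FPKM with lidocaine and 10.5 ± 0.425 FPKM in controls (SD, n = 3 each). The log2 fold change of Man1a1 was -0.12 ± 0.08 (SE; edgeR, Benjamini-Hochberg-adjusted p = 0.995), with a 95% interval from -0.29 to 0.06, or 0.815-fold to 1.04-fold. It kept a negative sign, between -0.17 and -0.08, over the 6 fits that omitted 1 library each.

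**Figure D2:**
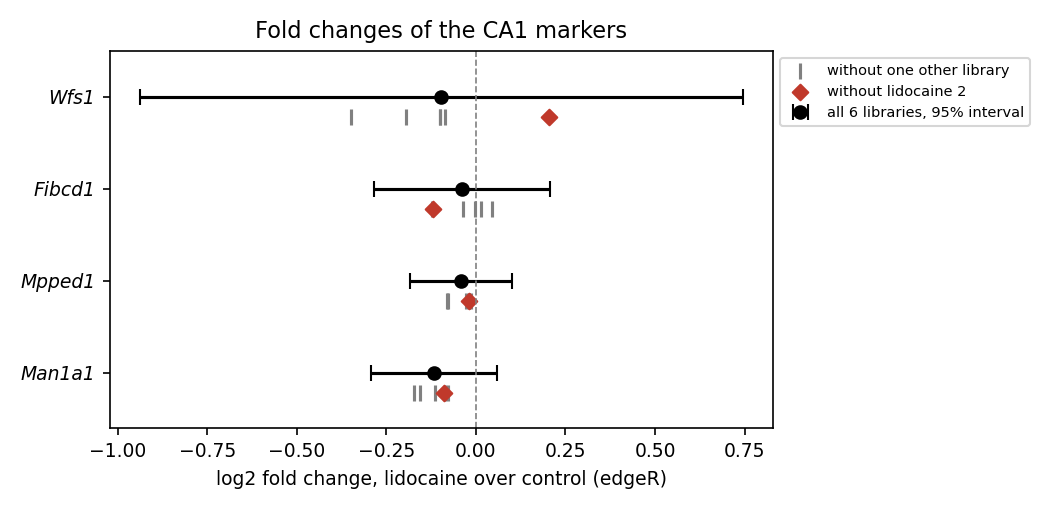
Log2 fold change of each measured marker, lidocaine over control, from edgeR with its 95% interval (black), and the values with lidocaine library 2 left out (red diamonds) or any other library left out (grey ticks). The Wfs1 interval runs from -0.94 to 0.74 and its value moves to 0.20 without lidocaine library 2, while the intervals of the other 3 markers stay between -0.29 and 0.21.

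In the controls the order of levels per length was Wfs1, Mpped1, Fibcd1 and Man1a1, and no neighbours in that order overlapped in FPKM. In lidocaine libraries 1 and 3 the order was the same. In lidocaine library 2, Mpped1 at 69.15 FPKM ranked 1 and Wfs1 at 57.73 FPKM ranked 2, just above Fibcd1 at 55.18 FPKM. Mpped1 and Fibcd1 stayed apart over all 6 libraries, with 67.8 FPKM as the lowest Mpped1 level and 55.18 FPKM as the highest Fibcd1 level.

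The markers also differed in how each library stood to the control mean of the gene. On the log2 CPM scale lidocaine library 2 was at -0.98 for Wfs1, -0.08 for Mpped1, -0.17 for Man1a1 and 0.12 for Fibcd1. Lidocaine library 3 was at 0.31 for Wfs1 and between -0.08 and -0.01 for the other 3. The low value of lidocaine library 2 was thus seen in 1 of the 4 markers. Among 3558 tested genes with whole counts and a mean of at least 20 CPM, 2 lay as far below the median of the other 5 libraries as Wfs1 did in lidocaine library 2, Wfs1 itself and Nts. Nts, neurotensin, a peptide of subiculum and other neurons, was singled out after its values were seen. It was at 34.2, 15.3 and 53.1 CPM in lidocaine libraries 1, 2 and 3, against 36.5, 52.8 and 34.3 CPM in control libraries 1, 2 and 3. Unlike Wfs1, Nts was also uneven among the controls, and its log2 fold change was -0.27 ± 0.47 (SE; edgeR, Benjamini-Hochberg-adjusted p = 0.996). In the 5 libraries other than lidocaine 2, between 0 and 2 genes of the 3558 lay that far below the rest. Genes with a fractional count or a lower mean were not searched, and listed genes among them went both ways in lidocaine library 2. Maml2, with fractional counts, was lowest there, at 1.07 FPKM against 1.92 to 2.39 FPKM in the other libraries. Stard5 was highest there, at 2.78 FPKM against 1.7 to 2.04 FPKM.

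**Figure D3:**
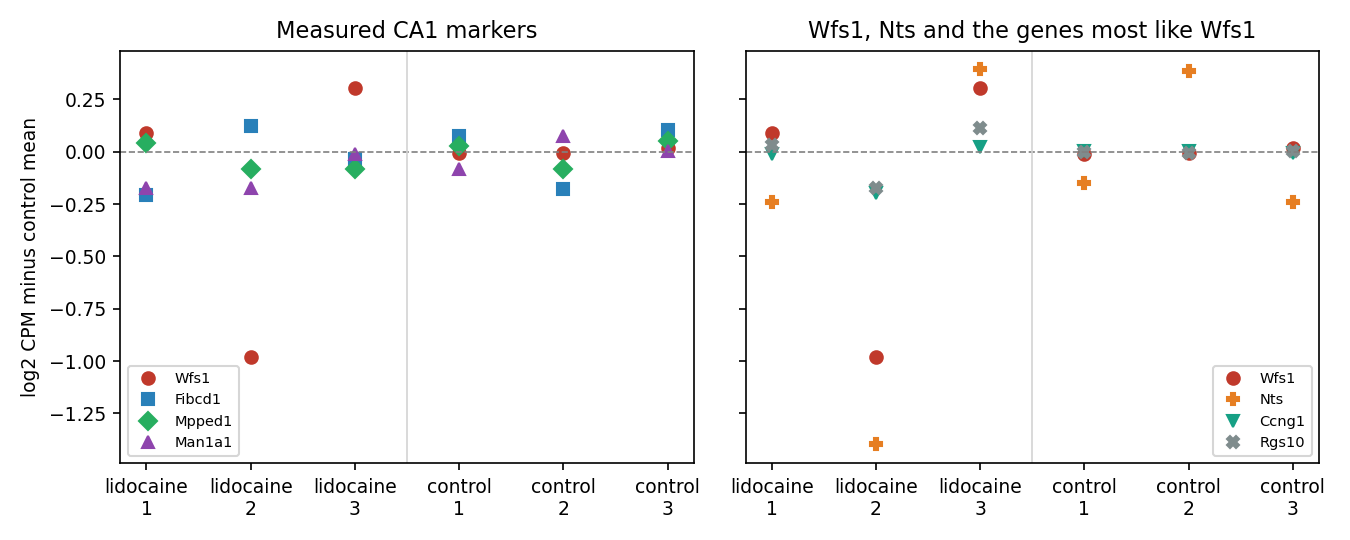
Log2 CPM of each library minus the mean of the controls, for the 4 measured CA1 markers (left) and for Wfs1, Nts and the genes most like Wfs1 (right), lidocaine libraries left of control libraries. Wfs1 is at -0.98 in lidocaine library 2, where Fibcd1 is at 0.12, and Nts is low in the same library while Ccng1 and Rgs10 dip far less.

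The genes whose pattern over the 6 libraries was most like each marker were taken from about 4570 tested genes with whole counts and a mean of at least 10 CPM. Pearson's r of log2 CPM is given as a description, since the points share libraries and scaling and since many genes were searched. For Wfs1 these were Ccng1, cyclin G1, with r = 0.98, and Rgs10, a regulator of G protein signalling, with r = 0.98. They shared the shape and not the size of the dip. Ccng1 was at 230.9, 202.9 and 236.7 CPM with lidocaine and 233.1, 233.3 and 231.7 CPM in controls, and Rgs10 was at 41.9, 36.3 and 44.3 CPM with lidocaine and 41.0, 40.8 and 41.1 CPM in controls. Spearman's rho, which uses ranks alone, was 0.94 for Rgs10 and 0.49 for Ccng1.

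For Fibcd1 the most like were Zc3h7b, a zinc-finger gene, and Slc26a8, an anion transporter, with r = 0.98 and r = 0.96. Slc26a8 was at 18.6, 31.2 and 25.5 CPM with lidocaine and 26.5, 16.8 and 29.1 CPM in controls, so it was high in lidocaine library 2 and low in lidocaine 1 and control 2, as Fibcd1 was. For Mpped1 they were Wwc2 and Adora2b, the adenosine A2B receptor, both with r = 0.99. For Man1a1 they were Nkrf, a repressing factor of NF-kappa-B targets, and Sec14l5, both with r = 0.99. No gene was named for more than 1 marker.

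Wfs1 and Fibcd1 were the furthest apart in lidocaine library 2, and the sequence around their start sites is shown to set these markers side by side. The sequences are mouse RefSeq promoters of build GRCm38.p6, 250 bases before to 50 bases after the start, 5′ to 3′, at chr5:36988933-36989232 on the minus strand for Wfs1 and chr2:31845956-31846255 on the minus strand for Fibcd1. Capitals mark matches on either strand to the GC box GGGCGG or the CCAAT box CCAAT, none of which overlap.
Wfs1: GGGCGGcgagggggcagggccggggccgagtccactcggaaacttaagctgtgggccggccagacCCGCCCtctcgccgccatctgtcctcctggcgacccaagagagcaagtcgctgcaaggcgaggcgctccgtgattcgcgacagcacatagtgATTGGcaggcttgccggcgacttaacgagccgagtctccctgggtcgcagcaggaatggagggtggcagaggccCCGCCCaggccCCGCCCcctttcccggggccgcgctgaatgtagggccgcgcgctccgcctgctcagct
Fibcd1: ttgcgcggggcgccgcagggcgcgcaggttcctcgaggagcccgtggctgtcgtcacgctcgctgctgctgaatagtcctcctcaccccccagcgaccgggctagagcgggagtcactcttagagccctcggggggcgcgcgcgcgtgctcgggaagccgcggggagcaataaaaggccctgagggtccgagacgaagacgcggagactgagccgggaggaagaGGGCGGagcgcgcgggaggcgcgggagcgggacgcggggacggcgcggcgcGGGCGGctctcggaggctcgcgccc
The Wfs1 window held 4 GC boxes and 1 CCAAT box, whose first base lies at -93 from the start, and the Fibcd1 window held 2 GC boxes and 0 CCAAT boxes. GC content was 70.0% for Wfs1 and 74.3% for Fibcd1, above the median of 52.7% of 32851 mouse promoter windows. Of those windows 35.7% held a GC box and 37.4% a CCAAT box. The TATA box TATAAA, the E-box CACGTG and the octamer ATGCAAAT, which POU factors such as Pou3f1 bind, had 0 matches in either window, against 13.6%, 7.2% and 1.7% of all windows. Mpped1 had 2 windows, with 9 and 0 GC boxes and 0 matches to the other motifs. These counts describe letters in a window and say nothing about binding.

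Of the 9 other CA1 genes listed with the markers, 7 passed the count filter. Lefty1 was listed at 0 in all 6 libraries and Spink8 did not exceed 0.2 FPKM in any. Of the 7, 0 were called higher and 0 lower, with a median log2 fold change of -0.07, against 0.00 over all tested genes and -0.07 over the 4 measured markers. Itpka, a kinase of dendritic spines, averaged 71.4 FPKM with lidocaine and 73.6 FPKM in controls, and Ccn3, a matricellular protein, 70.4 and 73.0 FPKM in the same order. Pex5l, an auxiliary protein of HCN channels, was at 64.67, 54.01 and 55.83 FPKM in lidocaine libraries 1, 2 and 3, against 69.75, 61.1 and 68.69 FPKM in control libraries 1, 2 and 3. Its log2 fold change of -0.21 ± 0.08 (SE) was not called (edgeR, Benjamini-Hochberg-adjusted p = 0.995), and lidocaine library 1 lay above control library 2. Calb1, the calcium buffer calbindin, had a log2 fold change of 0.13 ± 0.07 (SE; adjusted p = 0.995 in the same edgeR test). Dcn, a proteoglycan gene of ventral CA1 cells and of fibroblasts, had 0.14 ± 0.22 (SE) on the same scale. In whole hippocampus the levels of Calb1 and the other listed genes need not come from CA1 cells alone.

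Genes that work beside the markers were listed by pathway. Of 10 wolframin partners and endoplasmic reticulum stress genes, all 10 were tested, 0 were called, and the median log2 fold change was -0.06. Cisd2, the second Wolfram syndrome gene, had 0.19 ± 0.13 (SE), the chaperone Hsp90b1 -0.30 ± 0.17 and the stress sensor Atf6 -0.11 ± 0.07 on the log2 fold change scale. Of 10 N-glycan processing genes, 0 were called and the median was 0.01, with -0.12 ± 0.09 for Man1a2, the closest relative of Man1a1, and -0.11 ± 0.08 for Man2a1, a later mannosidase. Mpped2, the closest relative of Mpped1, averaged 9.82 ± 0.55 FPKM with lidocaine and 9.9 ± 0.814 FPKM in controls (SD, n = 3 each). Among POU genes, 0 were called, with -0.55 ± 0.25 for Pou3f2, -0.12 ± 0.18 for Pou3f3, 0.00 ± 0.20 for Pou3f4 and -0.50 ± 0.52 for Pou6f1 on the same scale. Pou3f2 was at 1.5, 1.32 and 1.31 FPKM in lidocaine libraries 1, 2 and 3, against 2.16, 1.34 and 2.49 FPKM in control libraries 1, 2 and 3, which overlap.

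Fields next to CA1 were described in the same way. CA2 and CA3 genes had 11 tested members, 0 called and a median log2 fold change of 0.06, and dentate granule cell genes had 10 tested, 0 called and a median of -0.09. Both medians changed sign without lidocaine library 2, to -0.02 for CA2 and CA3 genes and 0.02 for dentate genes, and the CA2 and CA3 median was also negative without lidocaine library 1, at -0.01. Nnat averaged 122.0 FPKM with lidocaine and 116.1 FPKM in controls, and Necab2, a neuronal calcium-binding protein, averaged 69.7 and 68.5 FPKM in the same order. The Nnat mean hides an uneven lidocaine group, at 152.41, 135.9 and 77.72 FPKM in lidocaine libraries 1, 2 and 3. Its control libraries 1, 2 and 3 were at 122.74, 111.13 and 114.33 FPKM. The summed CA2 and CA3 genes were at 339.65, 316.94 and 263.13 FPKM in those lidocaine libraries, against 293.4 to 295.48 FPKM in controls. That sum includes Nnat, its most abundant gene, whose lidocaine levels fell in the same order. No sum without Nnat was computed, so the uneven sum is not read as a trait of the list. The CA2 and CA3 genes with the smallest p were Homer3 at -0.26 ± 0.22 and Grik4, a kainate receptor subunit of CA3, at 0.25 ± 0.21 (log2 fold change, SE). For dentate granule cells they were C1ql2 at 0.13 ± 0.08 and Il16 at -0.22 ± 0.22, and Stxbp6 was at -0.10 ± 0.11. As a check of the labelled tissue, dentate genes gave a mixed picture, which decides nothing. C1ql2 reached 35.2 to 44.0 FPKM over the 6 libraries, while the dentate factor Prox1 did not exceed 0.13 FPKM and Tdo2 0.06 FPKM. The Prox1 counts were fractional, so its values depend on how reads were divided by the authors' counting.

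Summed levels of 15 other lists were compared, and those of 4 did not overlap between the groups. These are given with no test of their own. Of all single genes tested, 9.9% did not overlap between the groups. No such share was computed for sums of genes, so that percentage is no background for them. The summed level of the 6 oligodendrocyte genes was 1951 to 2582 FPKM with lidocaine and 2657 to 3007 FPKM in controls. All 6 had a negative log2 fold change, but only 1, Mbp, had group ranges that did not overlap. Mbp, whose counts were fractional, made up a large part of that sum. It was at 1086 to 1380 FPKM with lidocaine and 1525 to 1620 FPKM in controls. The summed level of 5 meningeal fibroblast genes was 12.1 to 16.4 FPKM with lidocaine and 9.2 to 10.35 FPKM in controls. The sum of 5 thalamus, striatum and choroid plexus genes was 42.15 to 43.92 FPKM with lidocaine and 44.2 to 48.3 FPKM in controls. Most of it came from Ppp1r1b, at 32.82 to 34.86 FPKM with lidocaine and 34.56 to 37.15 FPKM in controls. Of the 5 genes, 0 had group ranges that did not overlap. The sum of 10 subiculum and cortex genes was 58.4 to 67.71 FPKM with lidocaine and 67.74 to 82.0 FPKM in controls. Without Nts, an alternative chosen after seeing the data, it was 40.79 to 52.76 FPKM with lidocaine and 48.41 to 66.34 FPKM in controls, so the groups then overlapped. The sum of the 4 measured CA1 markers was 191.5 to 265.6 FPKM with lidocaine and 234.3 to 253.2 FPKM in controls. Without Wfs1, likewise chosen after seeing the data, the sum of the other 3 was 128.85, 133.8 and 127.11 FPKM in lidocaine libraries 1, 2 and 3, against 136.13, 122.89 and 139.36 FPKM in control libraries 1, 2 and 3. Lidocaine library 2 was then the highest of the lidocaine libraries. No list was at 0 as a whole, and Lefty1 was the only listed gene at 0 in all 6 libraries. The part of tissue makeup in the Wfs1 values was not tested.

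No member of these other lists was called. The members with the smallest p in each, as log2 fold changes with SE, were Mbp at -0.39 ± 0.09 and Mag at -0.37 ± 0.13 for oligodendrocytes, Igf2 at 0.57 ± 0.11 and Aldh1a2 at 0.70 ± 0.30 for meningeal fibroblasts, and Tle4 at -0.37 ± 0.15 and Fn1 at -0.29 ± 0.21 for subiculum and cortex. They were Ppp1r1b at -0.09 ± 0.06 and Drd1 at -0.21 ± 0.17 for thalamus, striatum and choroid plexus, Gad1 at 0.14 ± 0.09 and Pvalb at -0.16 ± 0.10 for interneurons, and Gfap at 0.09 ± 0.07 and Slc1a3 at -0.09 ± 0.08 for astrocytes. For microglia they were Tmem119 at 0.16 ± 0.07 and P2ry12 at 0.22 ± 0.15, and for endothelium Tek at -0.19 ± 0.11 and Flt1 at -0.12 ± 0.09. Excitatory neuron genes had a median of 0.02 over 9 tested genes, with Emx1 at -0.30 ± 0.15 and Chn1 at -2.75 ± 0.38. Chn1, a signalling protein of neurons, was at 5.64, 5.02 and 5.24 FPKM in lidocaine libraries 1, 2 and 3, against 55.78, 24.34 and 26.19 FPKM in control libraries 1, 2 and 3. Its counts were fractional and it was not called (edgeR, Benjamini-Hochberg-adjusted p = 0.551).

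**Figure D4:**
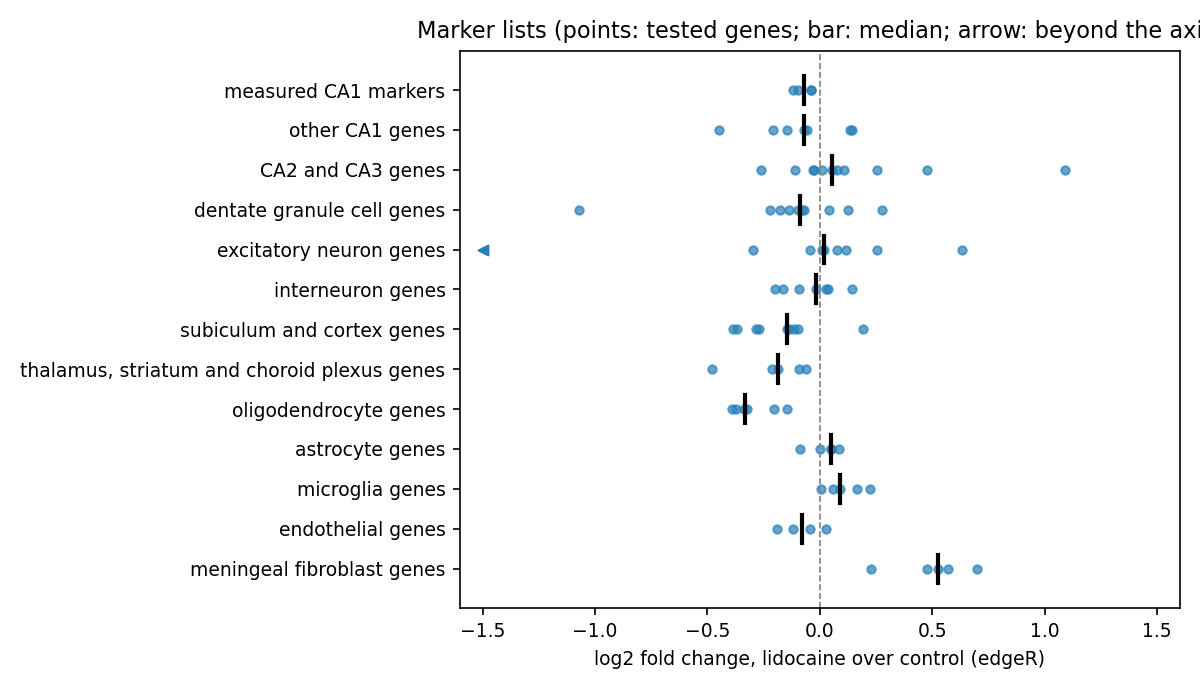
Log2 fold change, lidocaine over control, of each tested gene (points) and the median (bar) for the measured CA1 markers and 12 other marker lists, with an arrow for Chn1, which lies beyond the axis. The measured CA1 markers have a median of -0.07, while the oligodendrocyte list is at -0.33 and the meningeal fibroblast list at 0.53.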

How the data were processed

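Gene values came from 1 table of 22050 genes with 6 libraries, matched to the sample titles by group initial and replicate number. Per the file headers, the authors deposited estimated counts, which are not scaled, and FPKM values, scaled for length and depth. The submitters' processing notes name the build mm10, and no source used here names the aligner, counting program or annotation. Of the symbols, 72.8% also occur in a mouse gene table. In 30.4% of genes a count is fractional. Reads of mouse counted on rat gene models would be lost where the species differ.

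Estimated counts were rounded, filtered with filterByExpr (13408 genes left) and scaled by TMM (0.991 to 1.009). Lidocaine was compared with control by edgeR 4.0.16 in R 4.3.3 (quasi-likelihood, robust, two-sided, group alone), with Benjamini-Hochberg adjustment over all tested genes and calls under 0.05. Standard errors and intervals were derived from the F statistic. With 3 libraries a group, no exact permutation p can fall below 0.1. The fit was tested on simulated data. RLE and no scaling, no filter, DESeq2 1.42.0, limma-voom and limma 3.58.1 on log2(FPKM + 1) and log2(FPKM + 0.1), a block on replicate number, and each library left out were alternatives. Every pair of libraries differed by more than sampling noise, with chi-square over its degrees of freedom of 10.01 to 17.64.

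The members and gene lists were chosen with earlier results of these data known. The listed genes Map3k15, Dock10, Neurod2, Pecam1 and Col1a2 did not match a single row each and were left out of their lists. Named genes are the members, the 2 genes with the smallest p of each list, Man1a2, Mpped2, Pou3f2, Pou3f3 and Cisd2 as relatives or partners of members, the 2 most abundant genes of the CA1, CA2 and CA3, and dentate lists, and the 2 genes most like each member. Lefty1, Spink8, Dcn, Nts, Prox1, Tdo2, Maml2, Stard5 and Pou3f4 were otherwise chosen after their values were seen. Promoter windows were matched by symbol for 3 of the 5 members.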

Additional observations from a re-analysis of the deposited data

How the results depend on the processing

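None of the 4 measured markers was called under any of 14 alternatives each, with adjusted p-values of 0.913 or higher. Mpped1 and Man1a1 kept a negative sign throughout. With libraries left out in turn, the log2 fold change of Wfs1 ranged from -0.35 to 0.20 and that of Fibcd1 from -0.12 to 0.044. Wfs1 was positive only without lidocaine library 2, and its value under the other 13 alternatives was negative. By FPKM, Wfs1 ranked 2 and Mpped1 ranked 1 in lidocaine library 2. Over all genes, 0 were called higher and 2 lower by edgeR (585 at an unadjusted p under 0.05). The numbers were 14 higher and 9 lower by DESeq2, and 1 and 4 by limma on log2(FPKM + 0.1). With a library left out there were 0 to 1 higher and 0 to 6 lower calls, 6 of them without lidocaine library 1 and 0 without lidocaine library 2 or control library 3. The replicate block gave 0 lower calls and changed no call of a marker. Same-numbered libraries did not deviate together (r = 0.05, 0.03 and 0.00), so the numbers are not taken to pair them. Other medians of log2 fold change moved beyond the spread between libraries in few cases: thalamus, striatum and choroid plexus genes ranged from -0.23 to -0.061, astrocyte genes from -0.0095 to 0.078, microglia genes from 0.078 to 0.16 and meningeal fibroblast genes from 0.34 to 0.60 with libraries left out, and on FPKM microglia genes were at 0.13 (pseudocount 0.1) and meningeal fibroblast genes at 0.30 (pseudocount 1). Medians near 0 also changed sign with a library left out, with ranges of -0.02 to 0.07 for CA2 and CA3 genes, -0.17 to 0.02 for dentate genes, -0.0050 to 0.13 for excitatory neuron genes, -0.08 to 0.05 for interneuron genes and -0.04 to 0.06 for N-glycan processing genes. The causes were not tested. With 3 libraries a group, the 95% interval of Wfs1 spanned 0.522-fold to 1.68-fold.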

Other observations

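Within-group spread of Wfs1 was unlike that of most genes in both groups. Among 3558 tested genes with whole counts and a mean of at least 20 CPM, the median coefficient of variation was 6.002% with lidocaine and 5.40% in controls. Wfs1 was at 40.7% with lidocaine, where 4 genes including Wfs1 were at least as variable, and at 0.989% in controls, where 3475 genes were at least as variable. In lidocaine library 3 the genes as far below the other libraries as Wfs1 was in lidocaine library 2 were Atp2b4, a plasma membrane calcium pump, and RGD1311744, and Tmem144 was as far above. Control library 1 had Rexo4 as far below and control library 3 had Pdyn, prodynorphin, as far above. These genes were singled out after their values were seen.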
